A study of Mus musculus with 30 samples.

Results

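The 39 HOX genes of the mouse were described in fibroblasts that differ in the CRY2 protein they carry. The genes were taken as every symbol of the expression table made of Hox, a cluster letter and a paralogue number, 39 of 34724 symbols, and symbols of antisense transcripts were left out. They comprise 11 HOXA, 10 HOXB, 9 HOXC and 9 HOXD genes. RNA was sequenced from Cry2-/- mouse embryonic fibroblasts (MEFs) that all stably overexpressed c-MYC, together with CRY2 changed at D325H, S510L or F428D, with wild-type CRY2 (WT), or with the empty vector (EV) as reference. Each construct was plated at a high density of 500 cells per well and harvested on day 11, or at a low density of 150 cells per well and harvested on day 14. This gave 10 groups of 3 biological replicates, 30 libraries in all, each from 2 pooled wells of a 6-well plate grown in 3% oxygen with 15% serum. The sources used here do not say how many embryos or independent transductions stand behind a construct, so construct and cell line cannot be told apart, and the p-values speak only of the spread among these libraries, which may be technical.

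HOX genes encode homeodomain transcription factors that give cells of the body axis their regional identity. They lie in 4 clusters, in which genes at one end (low paralogue numbers) are expressed towards the head and genes at the other end (high numbers) towards the tail and the tips of the limbs. Fibroblasts in culture keep a HOX pattern that reflects the body site they came from, which makes these genes a check on whether cell populations share a positional origin. HOX proteins bind DNA together with TALE homeodomain partners (PBX, MEIS and PREP proteins), and Polycomb and trithorax proteins keep silent and active HOX genes in their state.

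The results turn on the HOXB cluster on chromosome 11, and RefSeq promoter windows (GRCm38.p6) were at hand for 3 of its genes. These are Hoxb8 and Hoxb4, which differed between constructs, and Hoxb1, which stayed near 0 in every library. The 250 bases before each start are shown, 5′ to 3′ on the plus strand, with matches to the PBX-HOX motif TGATNNAT or the TATA motif TATAAA in capitals, on either strand.
Hoxb8, chr11:96281655-96281904: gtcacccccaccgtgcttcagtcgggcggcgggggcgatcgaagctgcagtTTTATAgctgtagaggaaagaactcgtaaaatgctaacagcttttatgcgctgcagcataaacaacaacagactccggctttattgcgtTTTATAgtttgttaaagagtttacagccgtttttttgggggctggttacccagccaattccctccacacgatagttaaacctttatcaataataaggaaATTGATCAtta
Hoxb4, chr11:96318017-96318266: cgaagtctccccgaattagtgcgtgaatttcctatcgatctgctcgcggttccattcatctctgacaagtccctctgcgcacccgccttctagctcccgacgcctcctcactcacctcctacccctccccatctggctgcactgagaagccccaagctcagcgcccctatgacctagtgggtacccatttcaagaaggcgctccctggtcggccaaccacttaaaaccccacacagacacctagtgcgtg
Hoxb1, chr11:96365508-96365757: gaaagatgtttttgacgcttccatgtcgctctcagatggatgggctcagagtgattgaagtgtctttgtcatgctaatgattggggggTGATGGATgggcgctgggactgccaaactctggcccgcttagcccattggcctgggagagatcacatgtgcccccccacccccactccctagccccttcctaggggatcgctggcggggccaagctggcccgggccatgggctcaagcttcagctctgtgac
In the Hoxb8 window the match that ends next to the start is of the PBX-HOX motif and the other 2 are of the TATA motif, all 3 read on the minus strand. The Hoxb1 window holds 1 PBX-HOX match and the Hoxb4 window holds neither motif. Over all 32851 promoter windows of that length, 7.68% held the PBX-HOX motif and 12.4% the TATA motif. The E-box CACGTG, the letters that CLOCK and BMAL1 bind and that CRY proteins act through, was in 6.02% of all windows and in none of these 3. Windows were matched for 22 of the 39 HOX genes, and there the E-box was found before Hoxd1, Hoxd10, Hoxd11 and Hoxd13. These matches describe letters in the windows shown.

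Values are TPM (length-corrected transcript levels scaled to a fixed sum per library), so the number of reads behind a gene is unknown and no counting error is given. The libraries held 960238 to 965790 TPM each, a sum that scaling sets and that does not show depth. Each had 12182 to 12655 genes at 1 TPM or more. D325H high 3 and F428D high 2 had the fewest genes above 0, with 16258 and 15910 against a median of 19002.5 over all libraries. Tests used log2(TPM + 1), a scale that understates the change of low genes, in limma over the 14093 genes with at least 1 TPM in at least 3 libraries. Construct comparisons were averaged over the 2 densities, and a gene was called where the Benjamini-Hochberg adjusted p was under 0.05. Fibroblast markers, such as the type I collagen genes, summed to 6792 to 16058 TPM, whereas endothelial markers summed to at most 1.03 TPM.

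All libraries shared one HOX outline. Of the 39 genes, 25 passed the filter: 10 HOXA, 8 HOXB, 7 HOXC and no HOXD gene. In every library 16 genes stood at 1 TPM or more, 8 of them HOXA, 7 HOXC and 1 HOXB (Hoxb9). Another 13 genes stayed below 1 TPM in all 30 libraries: Hoxa13, Hoxb1, Hoxb13, Hoxc12 and the 9 HOXD genes. Hoxc13, the only other gene left out by the filter, reached 1.04 TPM in F428D low 3 and was lower elsewhere. The lowest library had 18 HOX genes at 1 TPM or more and the highest 25, with a median of 24.

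HOXD genes were at or near 0 in these cells. Hoxd1, Hoxd3, Hoxd10 and Hoxd12 were listed at 0 in all 30 libraries. Hoxd8 had the highest HOXD level, up to 0.431 TPM in S510L high 1, and was listed at 0 in 19 libraries. Hoxd13, which patterns digits and genitalia, reached at most 0.032 TPM. The genes Lnpk and Mtx2, which flank the cluster on chromosome 2, were expressed in every construct, with means from 14.4 ± 2.72 TPM (F428D, SD, n = 6) to 18.8 ± 1.66 TPM (S510L) for Lnpk and from 48.4 ± 7.86 TPM (D325H) to 60.9 ± 2.26 TPM (WT) for Mtx2. Evx2, a homeobox gene 8.75 kb from the cluster, was listed at 0 throughout.

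By paralogue number, HOX expression peaked at 9 and 10 in every construct. Genes of paralogues 9 and 10 made up 61.9% to 68.5% of all HOX TPM in a library. Their mean share was 66.0% with D325H, 65.2% with S510L, 65.0% with F428D, 64.2% with WT and 66.6% with EV. Over 30 libraries Hoxc10 averaged 88.2 TPM, Hoxa10 64.9, Hoxa9 60.7, Hoxb9 46.9 and Hoxc9 16.7. Expression then dropped at paralogue 11, where Hoxc11 averaged 17.0 TPM and Hoxa11 1.65 TPM, and all 12 and 13 genes stood near 0. Paralogues 1 to 3, which act in the hindbrain and neck, made up 2.87% to 6.23% of HOX TPM, with Hoxa3 at 6.24 TPM on average. The clusters were not alike at one number: of paralogue 8, Hoxb8 averaged 16.6 and Hoxc8 4.49 TPM.

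**Figure D1:**
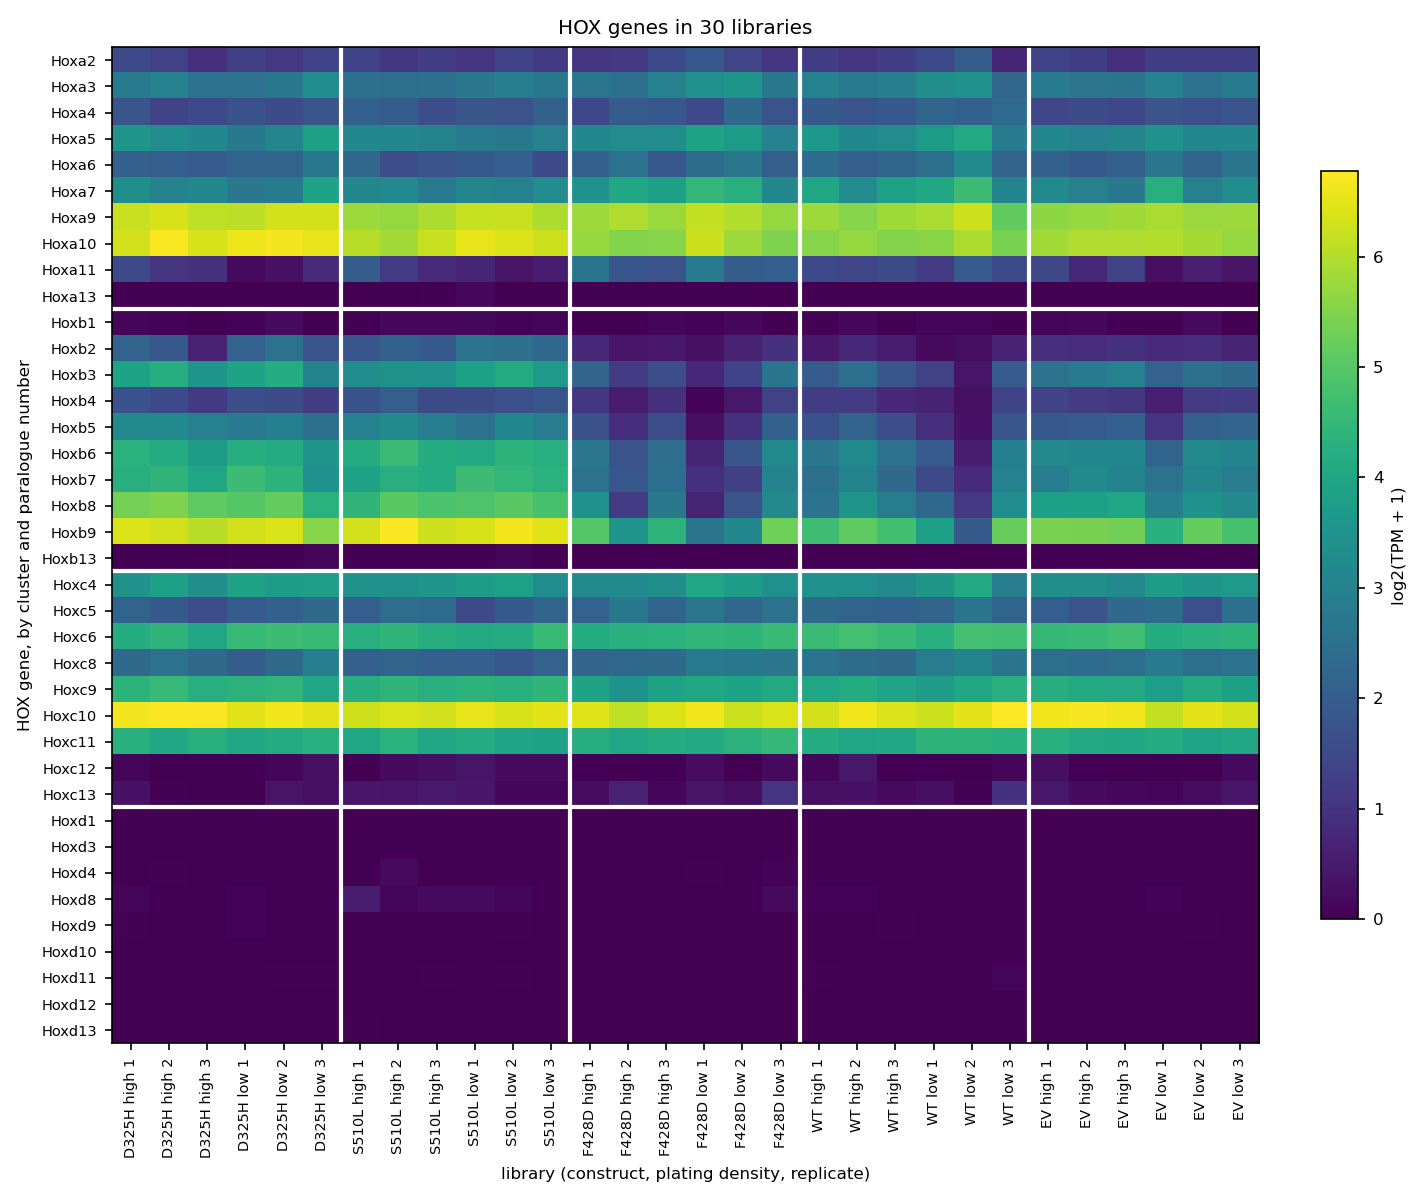
Level of the HOX genes (rows, by cluster and paralogue number) in each of the 30 libraries (columns, by construct, density and replicate), as log2(TPM + 1) on the colour scale. Most HOXA and HOXC rows vary little from left to right, the HOXD rows are dark throughout, and Hoxb3 and Hoxb5 to Hoxb9 are brighter in each of the 12 D325H and S510L libraries than in any other library.

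The summed HOXB level parted D325H and S510L from the other 3 constructs. The sum of its 10 genes was 164 ± 34.9 TPM with D325H (SD, n = 6), 178 ± 21.9 with S510L, 36.1 ± 25.4 with F428D, 43.1 ± 24.1 with WT and 68.4 ± 16.8 with EV. By library it ran from 101 to 189 TPM with D325H and from 151 to 204 TPM with S510L, against 8.56 to 72.4 with F428D, 6.20 to 69.1 with WT and 39.3 to 81.3 with EV. No D325H or S510L library overlapped with a library of F428D, WT or EV, while those last 3 overlapped with one another. HOXC sums were 174 ± 7.10, 155 ± 7.90, 154 ± 15.4, 166 ± 15.9 and 160 ± 14.0 TPM for D325H, S510L, F428D, WT and EV. They did not overlap between D325H (166 to 184 TPM) and S510L (145 to 162 TPM), and overlapped in all other pairs of constructs. HOXA sums were 202 ± 16.4, 166 ± 19.8, 158 ± 28.9, 148 ± 33.7 and 146 ± 12.2 TPM in the same order, and did not overlap between D325H (182 to 222 TPM) and EV (138 to 171 TPM) while overlapping in all other pairs. As a share of all HOX TPM, HOXB ranged from 20.6% to 40.3% in D325H and S510L libraries and from 1.59% to 20.5% in the others.

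**Figure D2:**
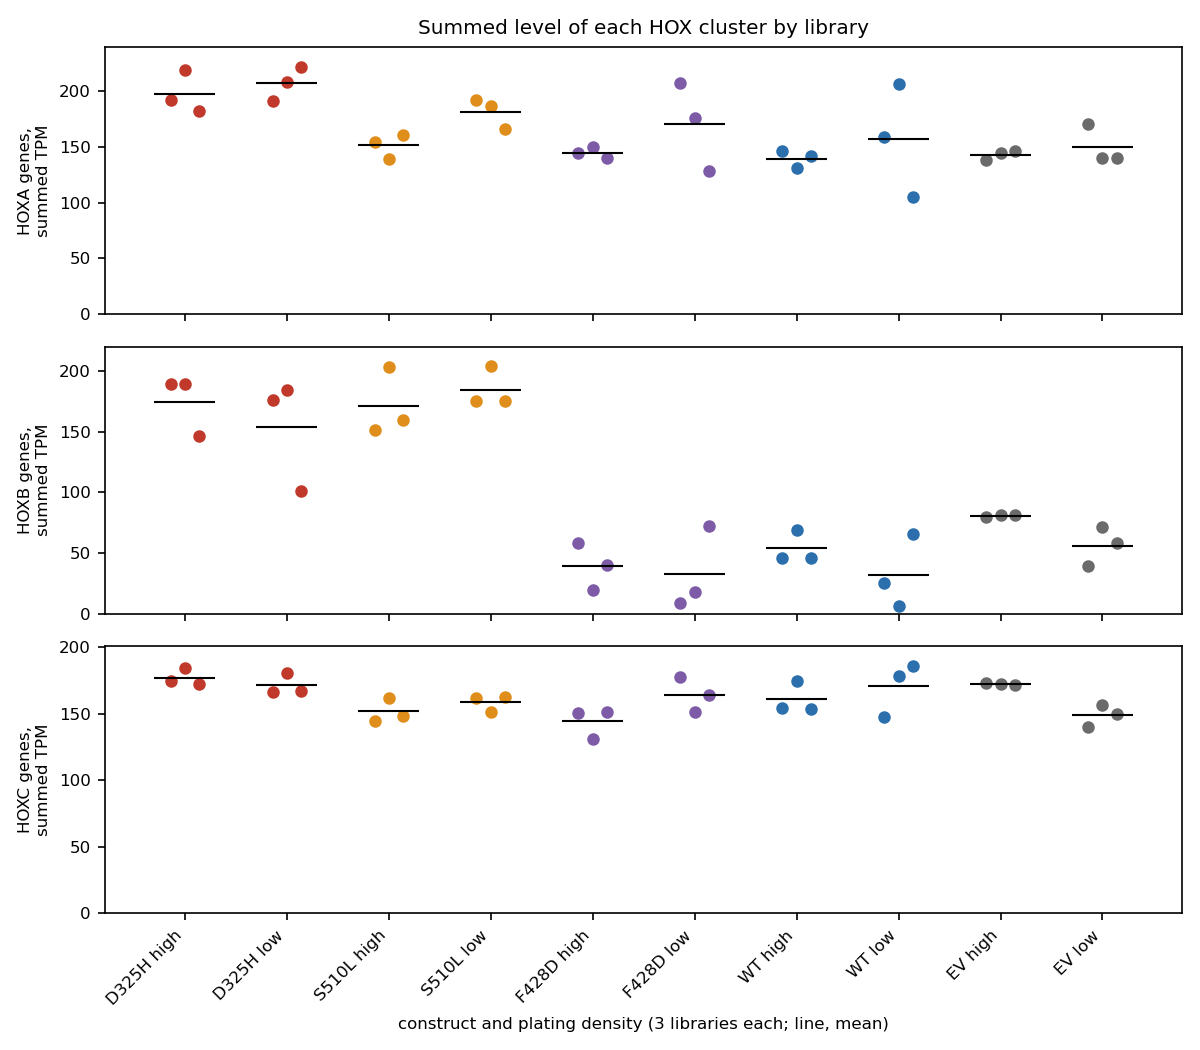
Summed TPM of the HOXA (top), HOXB (middle) and HOXC (bottom) genes in each library (points, 3 per group; line, mean), with axes from 0. The D325H and S510L points of HOXB sit between 101 and 204 TPM, all above the 6.20 to 81.3 TPM of the F428D, WT and EV points.

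Hoxb9 and Hoxb8, the most 5′ of the expressed HOXB genes and regulators of the thoracic and lumbar trunk in the mouse, had the highest HOXB levels. Hoxb9 (chromosome 11, 96271457 to 96276595, plus strand, GRCm38) had its lowest, median and highest value at 45.8, 78.1 and 83.8 TPM with D325H, at 76.0, 83.5 and 105 TPM with S510L, at 5.22, 15.2 and 37.8 TPM with F428D, at 2.79, 24.8 and 36.0 TPM with WT and at 18.7, 37.2 and 41.5 TPM with EV. Hoxb8 had 18.9, 34.0 and 43.4 TPM with D325H, 20.5, 28.5 and 32.1 with S510L, 0.632, 3.95 and 9.58 with F428D, 1.19, 5.62 and 10.4 with WT and 6.48, 11.7 and 14.9 with EV. For both genes every D325H and S510L library was above every library of the other 3 constructs. The same held for Hoxb3, Hoxb5, Hoxb6 and Hoxb7. The share of all tested genes that did so against all 3 constructs at once was not counted. Against single constructs it ran from 3.53% (D325H against EV) to 8.96% (S510L against WT).

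Hoxb3, a hindbrain and neck gene, had 7.39, 14.3 and 17.7 TPM as lowest, median and highest with D325H, 8.96, 10.9 and 16.8 with S510L, 0.675, 1.78 and 5.15 with F428D, 0.316, 2.65 and 4.58 with WT and 3.36, 4.75 and 6.69 with EV. Hoxb6 ranged from 10.6 to 18.9 TPM with D325H and from 16.1 to 23.6 with S510L, against 0.612 to 8.29 with F428D, 0.420 to 8.52 with WT and 3.53 to 8.17 with EV. The remaining ranges for Hoxb7 were 9.78 to 23.8 and 14.1 to 23.9 TPM with D325H and S510L, and 0.876 to 7.23, 0.737 to 7.28 and 4.81 to 8.46 TPM with F428D, WT and EV. Hoxb5 had 4.70 to 8.35 TPM with D325H and 4.92 to 8.45 with S510L, and its highest value elsewhere was 3.59 TPM, in EV low 3.

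Hoxb2 and Hoxb4 were the low members. Hoxb2, which acts in the hindbrain, had 0.604 to 4.75 TPM with D325H and 2.52 to 4.93 with S510L, against at most 0.958 TPM in the other 18 libraries. It reached 1 TPM in 11 libraries, all of D325H or S510L, so it passed the filter only through the constructs in which it is high. Its test results and its place in the counts below are therefore given for completeness and not as support. The D325H library below 1 TPM was D325H high 3. Hoxb4, also known for expanding blood stem cells, had 1.23 to 2.25 TPM with D325H and 1.90 to 3.13 with S510L, against 0.0505 to 1.46 with F428D, 0.243 to 1.60 with WT and 0.488 to 1.55 with EV. The D325H libraries overlapped with those 3 constructs, and the S510L libraries did not. Every S510L library was above every library of F428D, WT and EV singly for 7.03%, 8.96% and 5.51% of all tested genes.

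The expressed HOXB genes form 1 run of neighbours. Hoxb9 to Hoxb2 span 82.6 kb of chromosome 11 (96271457 to 96354012, GRCm38). Hoxb1, which lies 11.7 kb beyond Hoxb2, reached at most 0.153 TPM, and Hoxb13, 74.0 kb beyond Hoxb9, at most 0.074 TPM. Both are near 0 in D325H and S510L libraries too. The antisense transcripts Hoxb3os (over Hoxb2 and Hoxb3) and Hoxb5os (over Hoxb5) overlap HOXB exons in GENCODE, and whether counting used strand is not given in the sources used here, so reads of those pairs cannot be told apart. Hoxb6, Hoxb7, Hoxb8 and Hoxb9 overlap no antisense gene named in this way, and antisense genes under other names were not searched.

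With D325H against WT, 13 of the 25 tested HOX genes were called, 11 higher and 2 lower, where 37.3% of all tested genes were called (19.1% higher and 18.2% lower). HOXB gave 8 of the 11 higher genes, and its median difference was 1.82 in log2, against a median over all tested genes that differed from 0 by less than 0.01. The differences with their standard errors were 2.45 ± 0.37 for Hoxb8, 2.17 ± 0.28 for Hoxb3, 1.99 ± 0.32 for Hoxb7, 1.94 ± 0.41 for Hoxb9, 1.71 ± 0.34 for Hoxb6, 1.51 ± 0.26 for Hoxb5, 1.39 ± 0.19 for Hoxb2 and 0.54 ± 0.20 for Hoxb4 (limma, adjusted p = 5.31e-06 for Hoxb3 to 0.0333 for Hoxb4). Every D325H library was above every WT library for 6 of these 8, which held for 6.06% of all tested genes. Outside HOXB, Hoxa10 was higher by 0.92 ± 0.11 (limma, adjusted p = 2.65e-06), Hoxa9 by 0.51 ± 0.12 and Hoxc9 by 0.31 ± 0.10. Hoxa11 fell by 0.71 and Hoxa4 by 0.41 (limma, adjusted p = 0.00903 and 0.0153). Hoxa7, at 8.34 ± 3.27 TPM with D325H and 14.1 ± 6.00 with WT (SD, n = 6 each), was not called. The Hoxb4 call ended without WT low 1, WT low 2, WT high 3, D325H low 1, D325H low 2, D325H high 1 or D325H high 2 (limma, adjusted p up to 0.0977), and the Hoxc9 call without WT low 1, D325H low 2 or D325H high 2 (up to 0.0682).

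With S510L against WT, 15 of 25 were called, 10 higher and 5 lower, against 29.4% of all tested genes (20.6% higher and 8.82% lower). The 8 HOXB genes were again among the higher ones, from 2.24 ± 0.37 for Hoxb8 and 2.22 ± 0.41 for Hoxb9 to 1.73 ± 0.19 for Hoxb2 and 0.78 ± 0.20 for Hoxb4 (limma, adjusted p = 3.73e-07 for Hoxb2 to 0.0041 for Hoxb4). Between them lay Hoxb7 at 2.10, Hoxb3 at 2.01, Hoxb6 at 1.98 and Hoxb5 at 1.53. Hoxb2, with the smallest p of these 8, passed the filter only through the constructs in which it is high, so its p is not used as support. For all 8 every S510L library was above every WT library, as for 8.96% of all tested genes. Hoxa10 was higher by 0.60 ± 0.11 and Hoxc9 by 0.32 ± 0.10. Middle members of HOXA and HOXC were lower: Hoxc8 fell by 0.56, Hoxc6 by 0.32, Hoxa7 by 0.75 and Hoxa6 by 0.57, as did Hoxa11 by 0.59 (limma, adjusted p = 0.000756 to 0.0392). Hoxc8, a thoracic gene, stood at 3.21 ± 0.316 TPM with S510L and 5.31 ± 1.23 TPM with WT (SD, n = 6 each). Every S510L library was below every WT library for Hoxc8, as for 4.02% of all tested genes. Calls ended for Hoxa6 without WT low 2 or S510L high 2 (limma, adjusted p up to 0.0616), for Hoxc9 without WT low 1 (0.0616), for Hoxa7 in 9 of the 12 fits with 1 library left out (all but WT low 3, WT high 2 and S510L low 3, up to 0.116) and for Hoxa11 in 8 of 12 (all but WT low 1, WT high 2, S510L low 1 and S510L high 1, up to 0.111).

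**Figure D3:**
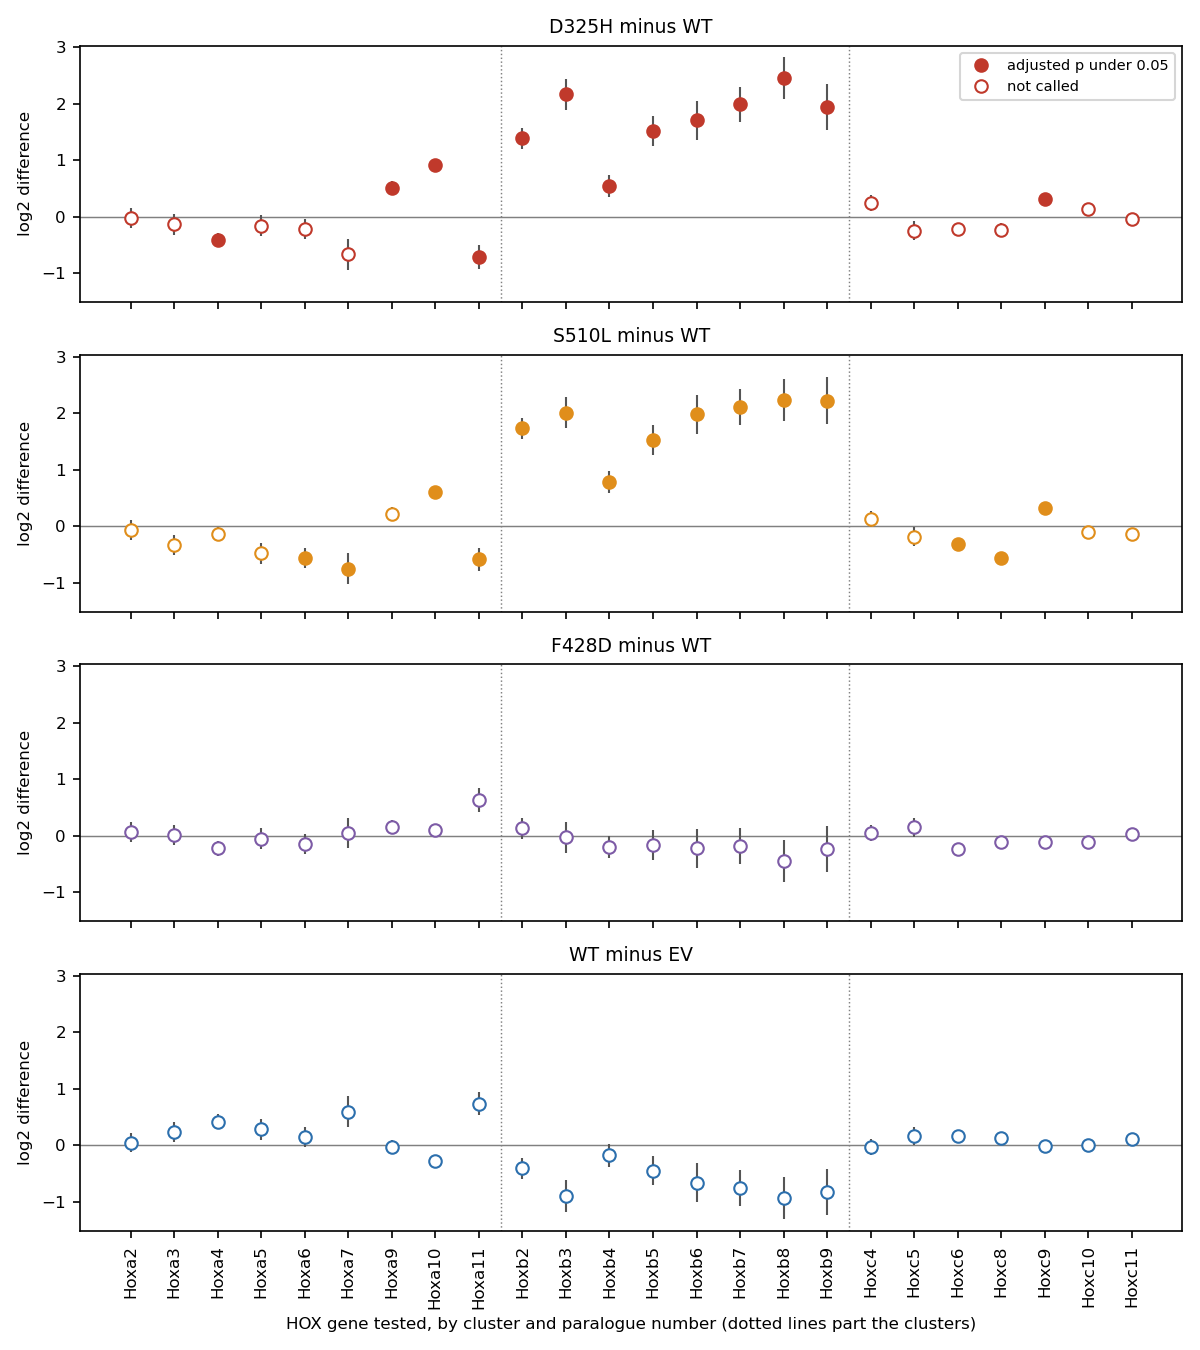
Difference in log2(TPM + 1), averaged over densities, for tested HOX genes in 4 comparisons (panels), with the standard error of the limma fit as bars. Filled points are called at an adjusted p under 0.05. The 8 HOXB genes between the dotted lines are filled and above 0 in the D325H and S510L panels, and no point is filled in the F428D and WT panels.

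F428D against WT gave 0 called HOX genes of 25, where 0.0497% of all tested genes were called. At an unadjusted p under 0.05 there were 2, Hoxa11 at 0.63 ± 0.21 and Hoxc6 at -0.23 ± 0.09 (limma, adjusted p = 0.406 and 0.458). HOXB differences lay between -0.45 and 0.13. WT against EV also gave 0 of 25, with 0.532% called among all tested genes. There 8 members had an unadjusted p under 0.05: Hoxa11 (0.73 ± 0.21), Hoxa7 (0.59 ± 0.27) and Hoxa4 (0.42 ± 0.13) above 0, and Hoxb8 (-0.93 ± 0.37), Hoxb3 (-0.90 ± 0.28), Hoxb7 (-0.76 ± 0.32), Hoxb2 (-0.41 ± 0.19) and Hoxa10 (-0.28 ± 0.11) below it, with limma adjusted p = 0.107 for Hoxa11 as the smallest. The share of all tested genes at an unadjusted p under 0.05 is not given here, so these 2 and 8 members cannot be set against a background. With weights per library, 13 members were called for WT against EV, where 16% of all tested genes were.

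D325H, S510L and F428D were also set against EV. The comparisons with EV and with WT share the libraries of the changed protein, so they are given side by side and not as support for each other. D325H had 10 of 25 members higher and 0 lower than EV (25.3% of all tested genes called, 11.6% higher and 13.7% lower), among them 7 HOXB genes from 1.52 ± 0.37 for Hoxb8 to 0.98 ± 0.19 for Hoxb2, and Hoxa10 at 0.64 ± 0.11, Hoxa9 at 0.48 ± 0.12 and Hoxc9 at 0.30 ± 0.10 (limma, adjusted p = 0.00035 to 0.0497). S510L had 10 higher and 1 lower (18.7% called, 13.4% higher and 5.26% lower): the 8 HOXB genes, from 1.39 ± 0.41 for Hoxb9 to 0.60 ± 0.20 for Hoxb4, Hoxa10 at 0.33 ± 0.11 and Hoxc9 at 0.31 ± 0.10, with Hoxc8 at -0.44 ± 0.12 (limma, adjusted p = 2.83e-05 to 0.0356). With F428D, 2 of the 8 tested HOXB genes were called against EV, where Hoxb8 fell by 1.39 and Hoxb3 by 0.92, calls that ended in 10 and 19 of 23 alternatives, and Hoxa11 was higher by 1.36 ± 0.21 (limma, adjusted p = 0.00119 for Hoxa11, 0.0269 for Hoxb8 and 0.0463 for Hoxb3), 3 of 25 members where 6.17% of all tested genes were called (1.59% higher and 4.58% lower). Every D325H library was above every EV library for 6 HOXB genes, Hoxa9 and Hoxa10 (3.53% of all tested genes). Every S510L library was above every EV library for 8 HOXB genes (5.51%) and below every EV library for Hoxc8 (3.46%). Every F428D library was above every EV library for Hoxa11 alone among the members (0.596%). No tested member had all libraries above or all below for WT against EV (0.397% above and 1.28% below among all tested genes). The same held for F428D against WT (0.0993% and 0.277%) and D325H against S510L (2.11% and 3.55%).

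Several of the calls against EV lay near the threshold and ended when 1 library was left out. Over those fits the differences kept their sign, at 0.99 to 1.24 for Hoxb9 and 0.89 to 1.15 for Hoxb6 with D325H. Left-out libraries that ended them were, for D325H, all but EV low 2 and D325H low 3 for Hoxb9 (limma, adjusted p up to 0.108), all but EV low 2, EV low 3, D325H low 3 and D325H high 3 for Hoxb6 (up to 0.08), and EV low 1, EV low 3, EV high 2, EV high 3, D325H low 1, D325H low 2 or D325H high 2 for Hoxc9 (up to 0.0942). For S510L they were all but EV low 1, S510L low 3 and S510L high 2 for Hoxa10 (up to 0.0967), EV low 1, EV high 2, EV high 3, S510L low 2, S510L low 3, S510L high 1 or S510L high 2 for Hoxb4 (up to 0.0986) and EV low 1, EV low 3, EV high 2, EV high 3, S510L low 1, S510L low 3 or S510L high 2 for Hoxc9 (up to 0.0799). For F428D they were all but F428D low 3 and F428D high 1 for Hoxb3 (up to 0.144) and EV low 2, EV high 2, EV high 3, F428D low 1, F428D low 2 or F428D high 2 for Hoxb8 (up to 0.104). The count for F428D against EV rose to 7 of 25 without F428D low 3 and was 1 without EV low 2.

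Between D325H and S510L no HOXB gene was called, with differences from -0.35 to 0.22 and standard errors of 0.19 for Hoxb2 to 0.41 for Hoxb9. D325H was higher for Hoxa10 (0.32 ± 0.11), Hoxc8 (0.33 ± 0.12) and Hoxc10 (0.23 ± 0.08), 3 of 25 where 22.9% of all tested genes were called, 6.04% higher and 16.9% lower (limma, adjusted p = 0.0384 to 0.0492). These calls were marginal: with 1 library left out, 0 to 2 of 25 members were called, and Hoxc10 was lost in 11 of the 12 fits (all but without D325H low 3), Hoxc8 in 9 (all but D325H low 1, D325H high 3 and S510L low 3) and Hoxa10 in 7 (D325H low 1, D325H low 2, D325H high 2, S510L low 2, S510L low 3, S510L high 1 and S510L high 2), with limma adjusted p up to 0.119, 0.113 and 0.126.

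Both were also compared with F428D. D325H against F428D gave 12 higher and 2 lower of 25 (33.4% of all tested genes called, 19.8% higher and 13.6% lower), with Hoxb8 at 2.91 ± 0.37, Hoxb3 at 2.20 ± 0.28, Hoxb9 at 2.18 ± 0.41 and Hoxb4 at 0.74 ± 0.20 within an all-higher HOXB, and Hoxa11 at -1.34 ± 0.21 (limma, adjusted p = 6.52e-06 for Hoxb3, 5.23e-05 for Hoxa11). S510L against F428D gave 10 higher and 3 lower (33.5% called, 25.5% higher and 8% lower), with Hoxb8 at 2.69 ± 0.37, Hoxb9 at 2.46 ± 0.41 and Hoxb2 at 1.60 ± 0.19, and lower Hoxa11 (-1.22 ± 0.21), Hoxa7 (-0.80 ± 0.27) and Hoxc8 (-0.44 ± 0.12) (limma, adjusted p = 1.3e-06 for Hoxb2 to 0.025 for Hoxa7). Every D325H library was above every F428D library for 6 HOXB genes and Hoxa10 (3.56% of all tested genes). Every S510L library was above every F428D library for 8 HOXB genes and Hoxc9 (7.03%), and below every F428D library for Hoxc8 (2.81%). The Hoxa7, Hoxa9 and Hoxc10 calls for D325H ended in 8, 6 and 3 of 12 fits with 1 library left out, and the Hoxa7 call for S510L in 5.

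Hoxa10, the highest HOXA gene, works in the lumbar region, the hindlimb and the uterus. It had 78.8, 93.3 and 104 TPM as lowest, median and highest with D325H, 56.0, 74.2 and 91.0 with S510L, 43.5, 48.7 and 74.3 with F428D, 41.7, 45.9 and 60.0 with WT and 50.8, 59.1 and 62.6 with EV. Every D325H library was above every library of F428D, WT and EV, and the S510L libraries overlapped with all other constructs. Hoxa9, its neighbour and a known leukaemia gene, averaged 75.2 ± 5.89 TPM with D325H, 61.7 ± 8.65 with S510L, 58.8 ± 7.31 with F428D, 53.9 ± 13.8 with WT and 53.8 ± 3.58 with EV (SD, n = 6).

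Hoxa11, needed for the forearm, lower leg and uterus, had another order. It was highest with F428D at 2.32, 3.00 and 5.83 TPM (lowest, median, highest), followed by WT at 1.28, 1.85 and 2.86 TPM. S510L had 0.276, 0.710 and 2.99 TPM, D325H 0.154, 0.871 and 1.82 TPM, and EV 0.216, 0.579 and 1.79 TPM. Every F428D library was above every D325H and EV library, as for 2.03% and 0.596% of all tested genes, while WT overlapped with all. Hoxa11 reached 1 TPM in 18 of 30 libraries, and the antisense transcript Hoxa11os overlaps it, so reads of that pair cannot be told apart.

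Hoxc10, a lumbar and hindlimb gene and the highest HOX gene here, varied little. It had 87.6, 99.4 and 106 TPM with D325H, 76.7, 82.3 and 90.4 with S510L, 68.5, 82.8 and 97.5 with F428D, 75.8, 86.6 and 108 with WT and 70.0, 93.2 and 101 with EV, and all constructs overlapped. Its highest library was 1.58 times its lowest, the second smallest ratio of the 25 tested HOX genes after Hoxc11 at 1.55, whereas the ratio was 32.5 for Hoxb7 and 68.7 for Hoxb8. Exons of Hoxc10 and Hoxc5 overlap in the annotation (8.70% of the bases of Hoxc10 and 5.37% of those of Hoxc5), so reads can be shared between them.

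**Figure D4:**
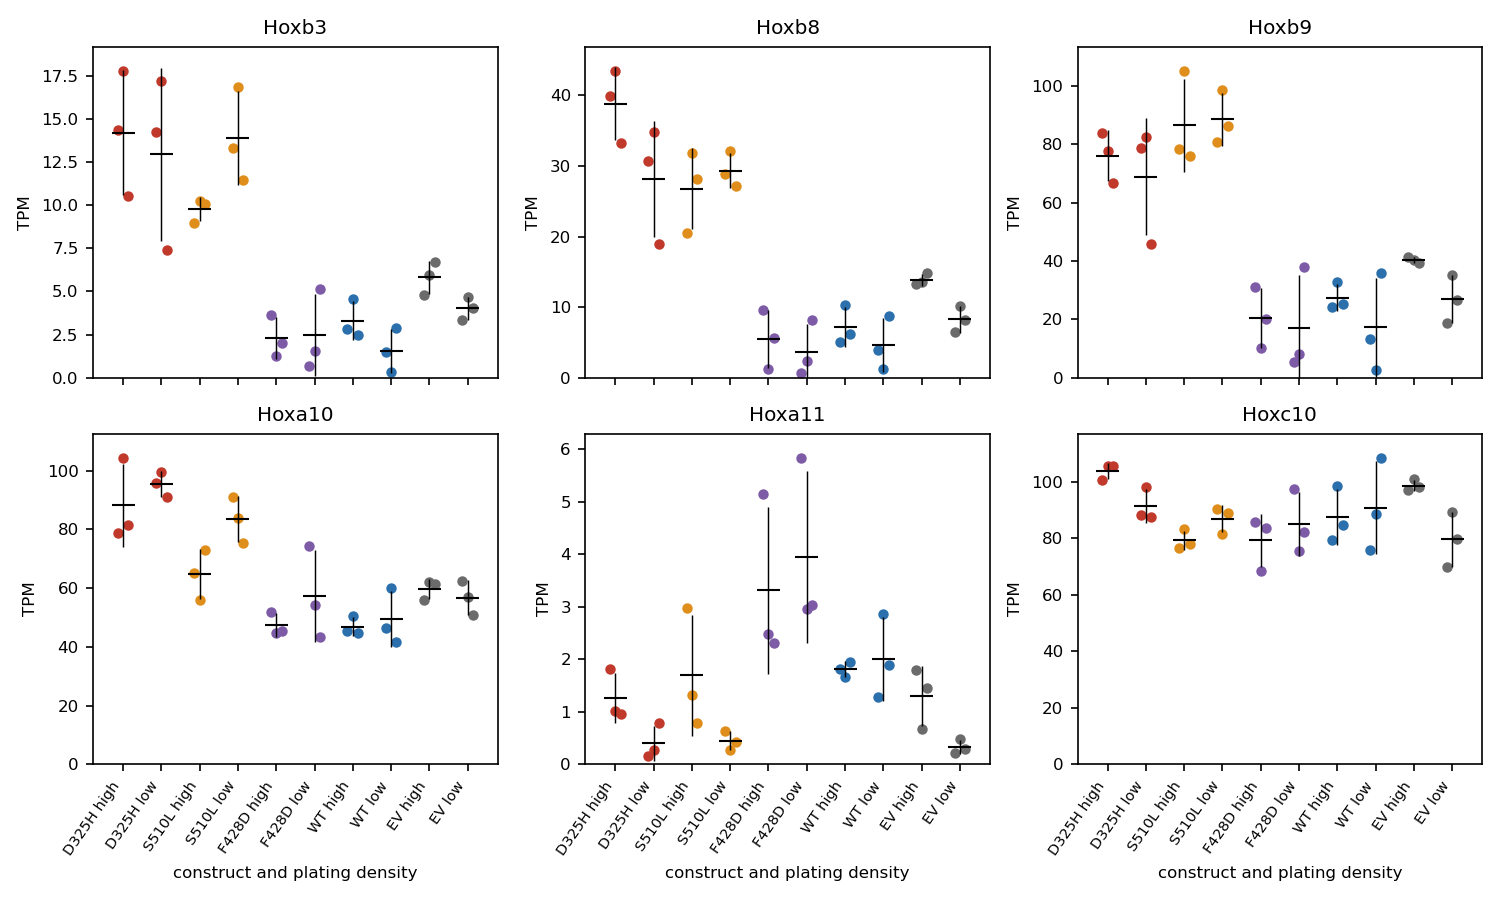
TPM of 6 HOX genes by construct and density (points, 3 libraries per group; horizontal line, mean; vertical line, SD cut at 0), with axes from 0. Hoxb3, Hoxb8 and Hoxb9 are high in D325H and S510L, Hoxa10 is highest in D325H, Hoxa11 is highest in F428D, and the Hoxc10 points overlap between constructs.

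Over all 5 constructs jointly, 16 of the 25 tested members were called, where 52.4% of all tested genes were. All 8 tested HOXB genes were among them, with 5 of 10 HOXA and 3 of 7 HOXC genes. Ranked by p among the 14093 tested genes, Hoxb3 stood at 164, Hoxb8 at 285 and Hoxa10 at 296 (limma F test, adjusted p = 7.15e-07, 1.95e-06 and 2.2e-06). Hoxb2 stood at 92 (limma F test, adjusted p = 2.02e-07), but it passed the filter only through the constructs in which it is high. The 9 members not called included Hoxa2, Hoxa3, Hoxa5, Hoxa6, Hoxc4, Hoxc5, Hoxc10 and Hoxc11. Of the 25, Hoxa2 had the largest p (limma F test, adjusted p = 0.961).

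Plating density also differs in harvest day. At high against low density 2 of 25 were called where 20.1% of all tested genes were (3.48% higher and 16.6% lower): Hoxa11 was higher by 0.40 ± 0.13 and Hoxc4, a neck and forelimb-level gene, fell by 0.26 (limma, adjusted p = 0.0328 and 0.0441). Hoxa11 averaged 1.27 ± 0.483 TPM at high and 0.401 ± 0.337 at low density with D325H, 1.70 ± 1.15 and 0.448 ± 0.180 with S510L, 3.32 ± 1.59 and 3.95 ± 1.64 with F428D, 1.81 ± 0.146 and 2.01 ± 0.799 with WT, and 1.31 ± 0.573 and 0.330 ± 0.138 with EV (SD, n = 3 each). The mean was thus higher at high density in D325H, S510L and EV and not in F428D and WT. With weights per library 14 of 25 were called, where 43.3% of all tested genes were. Neither call was stable: Hoxc4 was lost in 24 and Hoxa11 in 10 of the 30 fits that left out 1 library (limma, adjusted p up to 0.0783 and 0.0599), and the count ran from 0 without EV low 1 to 8 without WT low 3.

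The construct differences were not called as differing between densities. The joint limma F test of construct by density called 0 of 25 members, where 0.071% of all tested genes were called. Hoxc6 and Hoxa11 had an unadjusted p under 0.05 (2 members), a threshold for which no share of all tested genes is given. With weights per library the joint test called 9 members, where 32.1% of all tested genes were called. Within high density D325H against WT called 7 of 25 (10.2% of all tested genes) and S510L against WT 5 (9.17%), with 5 HOXB genes in each, namely Hoxb2, Hoxb3, Hoxb5, Hoxb7 and Hoxb8. Within low density D325H called 11 (29%), 7 of them HOXB, and S510L 13 (23.3%), 8 of them HOXB. Hoxb8, for example, differed by 2.33 ± 0.52 at high and 2.58 ± 0.52 at low density for D325H, and by 1.79 ± 0.52 at high and 2.68 ± 0.52 at low density for S510L. F428D against WT called 0 members at high density (0.0639% of all tested genes) and 0 at low (0.0142%), and WT against EV 0 at high (0.0284%) and 0 at low (0.305%).

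The HOXB genes also differed together among libraries of one group. In WT at low density the 8 tested HOXB genes summed to 6.13 TPM in replicate 2 and 65.7 TPM in replicate 3, a 10.7-fold range. In F428D at low density the sum was 8.52 TPM in replicate 1 and 72.4 TPM in replicate 3, an 8.50-fold range. F428D at high density spanned 3.03-fold, whereas the 3 EV libraries at high density lay within 1.02-fold. Over the 10 groups the median within-group range was 1.66-fold for HOXB, 1.16-fold for HOXA and 1.12-fold for HOXC.

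Within a group the same library tended to be lowest for the whole cluster. The library with the lowest HOXB sum was lowest in 64 of the 80 pairs of member and group, and in D325H and F428D at both densities it was lowest for all 8 members. The counts were 51 of 100 pairs for HOXA and 38 of 70 for HOXC, where no group had all members lowest in 1 library. The members of a sum are part of it, so these counts describe order and carry no test. The share of Hoxb9 was steadier than the HOXB level, at 41.1% to 61.0% of HOXB TPM where the sum ran from 6.20 to 204 TPM. Shares of the other HOXB genes were not compared. The order of libraries was also compared between HOXA and HOXB, with no test. The library lowest in HOXB was the highest in HOXA in 6 of 10 groups and the lowest in HOXA in 2, and the library highest in HOXB was the lowest in HOXA in 4 and the highest in 1. In WT at low density, for example, replicate 2, lowest in HOXB, had 206 TPM of HOXA and replicate 3, highest in HOXB, had 105 TPM.

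The level of 1 other gene was set beside the HOXB sums. Trp53, the gene of p53, singled out after its values were seen, had 59.2, 32.6 and 126 TPM in the 3 D325H libraries at high density and 15.4, 17.7 and 131 TPM at low density, 24.7 to 111 TPM in S510L, and 214 to 330 TPM in F428D, WT and EV. D325H high 3 and D325H low 3, the D325H libraries with the highest Trp53, had the lowest D325H HOXB sums, 146 and 101 TPM. WT low 2 and F428D low 1, with the lowest HOXB sums, had 240 and 214 TPM of Trp53, inside or at the edge of the range of their groups. The part of Trp53 in the HOXB result was not tested.

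Markers of other cell types were also read. The 6 epithelial markers summed to 29.3 to 279 TPM in D325H and 163 to 249 TPM in S510L, against 212 to 466 in F428D, 337 to 566 in WT and 294 to 473 in EV. Most of it was Krt19 (28.0 to 494 TPM) and Krt18 (up to 89.9 TPM), while the defining markers Epcam and Cdh1 reached at most 0.491 and 1.49 TPM. Krt8 was higher with S510L, with 2.75 ± 1.40 TPM against 0.862 ± 0.753 TPM in WT (SD, n = 6 each), a difference of 1.02 ± 0.22 (limma, adjusted p = 0.00112). The 5 cartilage markers summed to 1462 to 4903 TPM in S510L, 226 to 1457 in D325H, 324 to 1406 in F428D, 329 to 729 in WT and 235 to 1959 in EV. Of the 10 fibroblast markers, 8 were higher and 0 lower with D325H than WT, and 8 higher and 0 lower with S510L. Of the 5 cartilage markers, 3 and 5 were higher. Among all tested genes 19.1% were higher and 18.2% lower with D325H than WT, and 20.6% higher and 8.82% lower with S510L. Macrophage markers summed to at most 6.96, skeletal muscle markers to at most 2.99, pluripotency markers to at most 1.64, neural markers to at most 52.0 and adipocyte markers to at most 132 TPM. In bulk RNA, fewer cells of a type and less RNA per cell cannot be told apart, and the part of these markers in the HOX differences was not tested.

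Of the 10 tested TALE genes, which encode partners of HOX proteins, 3 were higher and 1 lower with D325H than with WT, 2 were higher and 2 lower with S510L, and 0 were called with F428D. The share called was 40% in both, where 37.3% and 29.4% of all tested genes were called with D325H and S510L against WT. With WT against EV 2 of the 10 were called, Pknox2 at -1.32 ± 0.26 and Meis3 at 1.00 ± 0.22, where 0.532% of all tested genes were (limma, adjusted p = 0.0223 and 0.0425). Pknox2 (PREP2) averaged 28.5 ± 10.6 TPM with D325H, 8.98 ± 3.18 with S510L, 3.70 ± 1.66 with F428D, 3.74 ± 1.37 with WT and 11.1 ± 3.79 with EV (SD, n = 6), a difference from WT of 2.59 ± 0.26 for D325H and 1.05 ± 0.26 for S510L (limma, adjusted p = 5.5e-07 and 0.00375). Against EV it differed by 1.26 ± 0.26 with D325H, which was called, and by -0.27 ± 0.26 with S510L, which was not (limma, adjusted p = 0.00158 and 0.519). Pbx3 was higher by 1.29 ± 0.17 and 0.83 ± 0.17 in these comparisons, and Meis1 by 0.87 ± 0.15 with D325H, with a value of 0.30 ± 0.15 in S510L that was not called. Meis3 was called over all constructs, with 7.57 ± 3.35 TPM in F428D and 2.48 ± 0.940 TPM in EV as its highest and lowest means. Meis2 was not called over all constructs, with means of 41.0 to 48.4 TPM.

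Of 27 Polycomb genes, 7 were higher and 5 lower with D325H than WT, and 9 higher and 2 lower with S510L, which is 44.4% and 40.7% called, against 37.3% and 29.4% of all tested genes. Over all constructs 19 were called, 70.4% against 52.4%. Scmh1, a PRC1-linked gene, fell by 0.82 with D325H and by 0.48 with S510L. Phf19, an accessory factor of PRC2, was higher by 1.14 ± 0.17 with S510L and Rybp by 0.46 ± 0.07, and Rbbp7 by 0.27 ± 0.05 (limma, adjusted p = 1.47e-05 to 0.0002), with values of 0.29, 0.15 and 0.05 in D325H that were not called. Of 14 trithorax and H3K27 demethylase genes, 2 were higher and 2 lower with D325H, and 4 higher and 0 lower with S510L, 28.6% in both, against 37.3% and 29.4% of all tested genes. Kdm6b, a demethylase that opposes Polycomb, was higher by 0.46 ± 0.10 and 0.30 ± 0.10, and Men1, a subunit of MLL complexes, by 0.32 ± 0.08 and 0.28 ± 0.08. Psip1 was higher by 0.42 ± 0.07 and Rbbp5 by 0.28 ± 0.07 with S510L, with values of 0.14 and 0.03 in D325H that were not called, and D325H against S510L was called for both (-0.27 ± 0.07 and -0.25 ± 0.07).

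Retinoic acid and CDX proteins are upstream inputs of HOX genes in the embryo. Of 13 tested genes 4 were higher and 1 lower with D325H than WT, and 3 higher and 2 lower with S510L, 38.5% in both, against 37.3% and 29.4% of all tested genes. Cyp26b1, an enzyme that breaks down retinoic acid, fell by 0.67 with D325H and was higher by 0.81 ± 0.20 with S510L (limma, adjusted p = 0.0102 and 0.00309). The receptor gene Rarg was higher by 0.23 ± 0.09 and 0.57 ± 0.09, while Rxra fell by 0.57 and Stra6, a retinol transporter, by 0.75 with S510L. Rarb, a classic retinoic acid target, reached at most 1.01 TPM, and Cdx1, Cdx2 and Cdx4 at most 0.139 TPM.

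Other genes that mark body position were also read. Of 8 tested limb genes, 3 were higher and 2 lower with D325H than WT, and 4 higher and 2 lower with S510L, 62.5% and 75%, against 37.3% and 29.4% of all tested genes. Against EV, 2 were higher and 1 lower with D325H, and with S510L 1 was higher, Pitx1, where 25.3% and 18.7% of all tested genes were called. Msx1 was higher by 1.56 ± 0.20 and 0.95 ± 0.20, Grem1 by 1.24 ± 0.36 and 2.34 ± 0.36, and Msx2 fell by 0.72 and by 0.43 with D325H and S510L against WT. Pitx1, which marks the hindlimb, was at 34.8 to 51.9 TPM in all 30 libraries, and was higher with S510L than WT by 0.21 ± 0.07 and than EV by 0.23 ± 0.07 (limma, adjusted p = 0.0193 and 0.0208). Tbx4 (hindlimb) reached at most 0.408 TPM and Tbx5 (forelimb) at most 0.113 TPM; these 3 were singled out after their values were seen.

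Of 12 tested cranial genes, 4 were higher and 3 lower with D325H than WT, and 5 higher and 2 lower with S510L, 58.3% in both, against 37.3% and 29.4% of all tested genes. Alx4 was higher by 0.81 and 0.51, and Dlx1 fell by 0.92 and by 0.82 and Dlx2 by 1.09 and by 0.64. Otx2, a forebrain and midbrain gene, was listed at 0 in every library. Of 21 trunk and organ genes, 6 were higher and 3 lower with D325H, and 6 higher and 6 lower with S510L, 42.9% and 57.1%, against the same 37.3% and 29.4%. Nkx3-2, which marks the axial skeleton and gut mesoderm, averaged 2.01 ± 1.68 TPM with S510L and 0.0145 ± 0.0356 with WT, and Gata4 2.55 ± 0.881 and 0.571 ± 0.338. So low a WT mean leaves Nkx3-2 to pass the filter only through other constructs. Its values are therefore given as description and not as support. Isl1 fell by 1.07 with D325H and by 1.23 with S510L, and Foxc2 by 1.31 and by 0.75. No gene of these lists or of the lists above was called with F428D against WT. Counts with D325H and S510L against EV are given only for the limb list. For the other lists, above and below, the D325H and S510L shares are against WT and are not set beside EV.

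Of 16 tested genes that flank the HOX clusters, 3 were higher and 4 lower with D325H than WT, and 6 higher and 2 lower with S510L, 43.8% and 50%, against 37.3% and 29.4% of all tested genes. Around HOXB, Ttll6 (28.9 kb away) reached at most 0.372 TPM, Calcoco2 (82.4 kb) at most 0.0494 TPM and Skap1 (96.3 kb) at most 0.460 TPM in any library. The expressed genes of the list lie farther off on the Hoxb1 side: Snx11 at 399 kb, Cbx1 at 421 kb and Nfe2l1 at 449 kb. Cbx1, a heterochromatin protein gene, was higher by 0.33 ± 0.07 and 0.51 ± 0.07 with D325H and S510L, Snx11 fell by 0.35 with D325H, and Nfe2l1 was higher by 0.21 ± 0.07 with S510L (limma, adjusted p = 7.99e-06 to 0.0318). Next to HOXD, Mtx2 fell by 0.34 and by 0.20, and next to HOXA, Snx10 was higher by 0.27 ± 0.08 with S510L. Of 15 noncoding genes within the clusters 1 is in the table and none passed the filter.

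Sex-linked genes were also read. Male cells of any source express Y-linked genes, so these do not tell whether the populations share an origin. The Y-linked genes Ddx3y, Eif2s3y, Kdm5d and Uty were expressed in all 30 libraries, with Ddx3y at 17.7 to 51.3 TPM and Uty at 6.98 to 15.3 TPM, so each library held RNA of male cells. Ddx3y, a helicase gene, was higher by 0.53 ± 0.14 with D325H and by 0.47 ± 0.14 with S510L than with WT (limma, adjusted p = 0.00388 and 0.0123), 1 of 4 tested. Xist was not analysed here.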

How the data were processed

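The authors deposited 1 table of TPM values for 34724 gene symbols in 30 libraries. Per the submitters' processing notes they used kallisto (no version given) with GRCh37.p13, a human assembly, although 34095 of the symbols, all 39 HOX genes among them, are in the mouse name table. The transcript set is therefore uncertain. Columns headed by number were matched to samples by the number in each sample title. Read length was 50 nt, single-end. TPM carry no counts, so precision rests on the 3 replicates of a group.

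log2(TPM + 1) was fitted for the 14093 genes that reached 1 TPM in 3 or more libraries in limma 3.58.1 (R 4.3.3), with 1 mean per group, empirical Bayes moderation with a variance trend, and Benjamini-Hochberg adjustment over all tested genes at 0.05. The fit was tested on simulated data. Tables and figures used Python 3.11.15, pandas 2.3.3 and matplotlib 3.10.9. Coordinates are from GENCODE M21 (GRCm38) and promoter windows from RefSeq.

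All members were counted. The 10 with the smallest joint p and the highest of each cluster were described in full, called members up to 12 were named in each comparison, and up to 4 members of smallest joint p in each other list. Other genes named were picked after their values were seen. Members, lists and tests were chosen with earlier results of these data known. Some genes that entered the counts and sums are not reported here by name or drawn.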

Additional observations from a re-analysis of the deposited data

How the results depend on the processing

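Depth cannot be known from TPM, and genes near 1 TPM (Hoxa2, Hoxa11, Hoxb2, Hoxb4) depend most on the pseudocount and filter. Of the 84 called member differences none changed direction under any alternative run. The HOXB calls for D325H and S510L against WT and against F428D held in every alternative except Hoxb4 for D325H against WT. Counts of called members that moved by more than 1.5 times were as follows. With weights per library (0.2 for F428D low 1 to 3.45 for F428D low 2) they were 13 for WT against EV, 13 for F428D against EV, 7 for D325H against S510L, 14 for density, 9 for construct by density and 69 within densities. The same weights raised the share of all tested genes called, to 16% for WT against EV, 25.4% for F428D against EV, 41.5% for D325H against S510L, 43.3% for density and 32.1% for construct by density. No such share is given for the 69 calls within densities or for the settings that follow, so those counts describe movement only. Fitting only the groups compared gave 1 for WT against EV and 1 for F428D against EV. Testing only genes that average 5 TPM or more, which removes members, gave 7 for S510L against EV, 8 for S510L against F428D, 10 for the joint construct test and 1 for density. Without a filter the counts were 1 for F428D against EV, 1 for D325H against S510L and 0 for density. Quantile normalization gave 1 for F428D against EV and 1 for density, and median-ratio scaling and a pseudocount of 5 gave 1 for density. Without D325H high 3 and F428D high 2, chosen after seeing the data, they were 1 for F428D against EV, 1 for D325H against S510L and 1 for density. Scaling moved the median of all tested genes by at most 0.103 in log2.

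With 1 library left out the count of called members was 0 in every fit for WT against EV, F428D against WT and construct by density. It ran from 11 to 15 for D325H against WT, 12 to 16 for S510L against WT, 7 to 10 for D325H against EV, 8 to 10 for S510L against EV, 1 to 7 for F428D against EV, 0 to 2 for D325H against S510L, 11 to 15 for D325H against F428D, 12 to 15 for S510L against F428D, 14 to 18 for the joint construct test, 0 to 8 for density and 28 to 43 within densities. No share of all tested genes called is given for fits with 1 library left out, here or above, so these counts describe movement only. The cause of these moves was not tested.

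At the median, same-numbered libraries of different groups showed little shared deviation over all tested genes. Over 135 pairs r ran from -0.281 to 0.483 with a median of 0.00833, against -0.00378 for pairs of unlike number. Of these pairs 26 had r above 0.1, and 8 of 30 libraries correlated best with their own number. Whether some pairs or some genes shared a deviation was not tested. With the replicate number as a block the counts were 14 for D325H against WT, 15 for S510L against WT, 9 for D325H against EV, 11 for S510L against EV, 2 for F428D against EV, 1 for D325H against S510L, 14 for D325H against F428D, 13 for S510L against F428D, 16 jointly, 2 for density, 36 within densities and 0 for the other 3 comparisons. The share of all tested genes called with this block is not given.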
